A study of Mus musculus with 2 samples.

Results

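The genes described here are 42 enzymes and transporters that carry glucose carbon into the mitochondrion: 17 of glycolysis and glucose uptake, 13 of pyruvate and lactate handling, and 12 of the tricarboxylic acid (TCA) cycle. They were listed by pathway and kept when their symbol had at least 20 UMIs over both libraries, which all 42 had, out of 22587 gene symbols of which 13656 reached that number. YFP+ hippocampal cells were collected from 3 CT and 3 Opa1 cKO mice aged 12 weeks, 4 weeks after tamoxifen (TAM) at 8 weeks, and each genotype gave 1 library of a droplet 3′ assay, made from the mixed cells of its 3 mice. Both genotypes carried Nestin-CreERT2 and the ROSA26YFP reporter and both received TAM. Opa1 cKO mice also carried the floxed Opa1 allele, and CT mice did not. Cre is driven by Nestin, so YFP marks neural stem cells (NSCs), cells derived from them, and any other cell in which the driver was active. As mice were mixed, differences between mice cannot be seen, no test between genotypes was made, and a difference between genotypes cannot be told apart from one between library preparations. A unique molecular identifier (UMI) marks 1 captured mRNA molecule near its 3′ end, so gene length does not enter its count, although capture can differ between genes. Counts were summed over cells and are given as CPM, the usual scaling to a fixed total, taken over UMIs of genes not encoded in mitochondrial DNA.

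Glycolysis splits glucose into pyruvate in the cytosol, with net gain of ATP and NADH. Pyruvate is then reduced to lactate by lactate dehydrogenase, or enters the mitochondrion through the carrier made of MPC1 and MPC2 and is oxidized to acetyl-CoA by the pyruvate dehydrogenase complex, which the PDK kinases inhibit. The TCA cycle oxidizes acetyl-CoA and passes electrons to the respiratory chain. Quiescent NSCs and astrocytes are known for strong glycolysis and for aldolase C, and neuronal differentiation for a greater use of oxidative phosphorylation. OPA1 is the inner membrane GTPase that shapes cristae, so these genes lie on both sides of the compartment that its loss disturbs.

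Promoters of many glycolytic genes hold the hypoxia response core ACGTG, which HIF1 binds, and the E-box CACGTG, which contains that core on both strands. The 250 bases upstream of the first RefSeq start listed (GRCm38.p6) were searched on both strands for 41 members, since Idh3a had no entry. ACGTG was present in 14 of 41 members (34.1%) and in 16.6% of 27025 promoters, and CACGTG in 5 of 41 (12.2%) and in 6.05%. TGATGNAA, a form of the composite site of ATF4, was in 0 of 41 members and 3.53% of promoters, and AAGGTCA, a site of estrogen-related receptors, was in Eno1 alone (2.44%, against 4.05%). The 3 windows shown belong to members that hold ACGTG and whose level differed with the mitochondrial share of the cell within the Opa1 cKO library, Pcx and Pfkfb3 being higher and Slc16a1 lower in cells with little mitochondrial mRNA. The windows of Mpc1 and Pfkl held none of these motifs. Capitals mark the matches. For Pfkfb3 only the 29 bases around its match are given. In this order, Pcx, Slc16a1 and Pfkfb3 stand at chr19:4510222-4510471 (plus strand), chr3:104638414-104638663 (plus strand) and chr2:11553973-11554001 (minus strand).
Pcx: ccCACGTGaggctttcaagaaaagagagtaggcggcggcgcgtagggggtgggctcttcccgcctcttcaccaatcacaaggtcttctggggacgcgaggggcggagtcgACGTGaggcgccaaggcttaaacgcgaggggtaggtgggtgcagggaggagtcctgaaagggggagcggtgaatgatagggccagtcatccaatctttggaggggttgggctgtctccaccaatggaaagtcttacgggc
Slc16a1: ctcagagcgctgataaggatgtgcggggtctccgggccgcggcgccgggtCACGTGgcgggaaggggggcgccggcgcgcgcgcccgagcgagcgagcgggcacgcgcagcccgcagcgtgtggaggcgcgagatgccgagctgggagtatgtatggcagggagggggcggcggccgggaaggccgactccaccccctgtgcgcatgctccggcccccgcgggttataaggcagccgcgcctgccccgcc
Pfkfb3: ctccgcgccgtgACGTGccaagctgtgac
The same letters thus stand upstream of the RefSeq starts of members on both sides of 0 in that comparison. By the GENCODE M21 annotation, the printed Pfkfb3 bases lie within the gene span, after its outermost start. So do the whole windows of Mpc1 and Pfkl. A match is a description of the sequence, and binding was not measured.

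The libraries held 10799936 UMIs in 4634 CT barcodes and 18662032 UMIs in 6475 Opa1 cKO barcodes, of which 1790 and 3764 cells passed the filters, with a median of 2555 and 3008 UMIs. The libraries shared 36 barcodes, 9 of them among the kept cells. Clusters were built without the 42 genes, the other pathway genes, the mitochondrially encoded genes or YFP, and were named from markers. They gave 1373 CT and 2847 Opa1 cKO NSC pool-like cells, and progenitor and neuron-like, ependymal-like, mural-like, endothelial-like and oligodendrocyte-like classes. Cluster 0, led by the stress genes Gdf15 and Nupr1, held 1900 of the NSC pool-like Opa1 cKO cells but 39 of CT, while CT cells lay mostly in clusters 1 and 2. Opa1, the targeted gene, was at 19.8 (15.4 to 25.0) in CT and 7.46 CPM (5.79 to 9.46) in Opa1 cKO NSC pool-like cells, although the assay also counts transcripts that lack deleted exons. In NSC pool-like cells globin mRNA, which marks red cells, summed to 330 in CT and 9.65 CPM in Opa1 cKO. Its part in the results was not tested.

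The first question was whether the enzymes differed between the NSC pool-like cells of Opa1 cKO and CT. Most of them did not differ by much. A gene was called past the fold when its log2 ratio was at least 0.5 in size and it had at least 100 UMIs over both groups, which 40 of 42 members had. 5 members were past the fold on the higher side and 1 on the lower, against 15.1% and 16.4% of the 8923 genes measured. The median log2 ratio of Opa1 cKO over CT was 0.10 for glycolysis, 0.10 for pyruvate and lactate handling and 0.14 for the TCA cycle, beside 0.02 for all 8923 genes. Over the same cells the 6 genes of the integrated stress response (ISR), a list chosen with its values in these data known, had a median of 1.62 with 5 of 6 higher. The intervals given with ratios are 95% exact binomial intervals of counting error only. They lay wholly above 0 for 17 members and wholly below 0 for 5. The share of all genes with such intervals was not counted, so these counts stand without a background. By the GENCODE M21 annotation of mm10, Mpc1 lies at chr17:8282904-8297661, Pfkfb3 at chr2:11471433-11554077, Idh3a at chr9:54586334-54604661 and Pdk4 at chr6:5483351-5496309, and values are sums over whole genes.

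**Figure D1:**
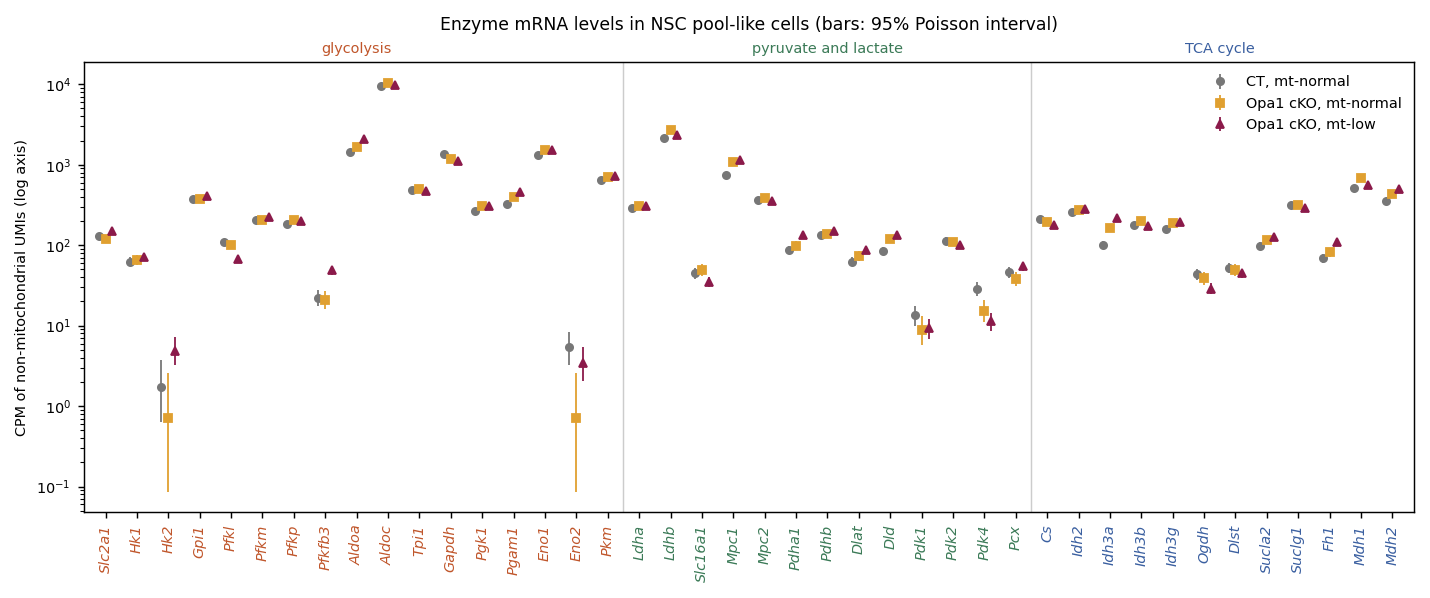
Level of each of the 42 genes in NSC pool-like cells, in CPM on a log axis, for CT cells and Opa1 cKO cells with at least 2% of UMIs from mitochondrially encoded mRNAs (mt-normal) and Opa1 cKO cells under 1% (mt-low). Points are sums over the cells of 1 library and bars are 95% Poisson intervals. Aldoc stands highest between 9591 and 10296 CPM in the 3 groups, and Pfkfb3, Pdk4, Idh3a and Mpc1 are among the members whose groups stand apart.

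Glycolysis starts with glucose uptake and phosphorylation. Slc2a1, the glucose transporter GLUT1, had 129.7 in CT and 137 CPM in Opa1 cKO, which gave a log2 ratio of 0.08 (−0.08 to 0.24). Hexokinase 1, Hk1, had 63.6 and 68.5 CPM, and Hk2 was counted 6 times in CT and 37 times in Opa1 cKO, under the minimum. The members measured here thus differed by little. Pfkfb3 makes fructose 2,6-bisphosphate, the activator of phosphofructokinase, and was the 1 glycolytic member past the fold, at 22.0 (17.4 to 27.5) in CT and 41.8 CPM (37.7 to 46.2) in Opa1 cKO, which gave a log2 ratio of 0.92 (0.57 to 1.29). Of the phosphofructokinase isozymes, which catalyse the committed step, Pfkm had 204 and 217 CPM and Pfkp 182 and 194 CPM. Pfkl went the other way, from 108 in CT to 76.4 CPM in Opa1 cKO. Its log2 ratio of −0.50 (−0.68 to −0.32) lay just inside the fold.

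The later steps of glycolysis held the most abundant members. Aldoc, the aldolase of astrocytes and NSCs, had 9607 in CT and 9704 CPM in Opa1 cKO, which gave a log2 ratio of 0.01, while its isozyme Aldoa had 1455 and 1906 CPM, a log2 ratio of 0.39 (0.34 to 0.43). Aldoc outnumbered all other glycolytic members together in both libraries. Without it the glycolytic sum was 6959 in CT and 7590 CPM in Opa1 cKO, which gave a log2 ratio of 0.13 (0.10 to 0.15), against 0.06 with it. Phosphoglycerate mutase, Pgam1, stood at 0.40 (0.31 to 0.50), enolase 1, Eno1, at 0.19 (0.14 to 0.24) and pyruvate kinase, Pkm, at 0.14 (0.07 to 0.21). Gapdh, which makes the NADH of glycolysis, was lower in Opa1 cKO at −0.26 (−0.31 to −0.21), with 1349 in CT and 1126 CPM in Opa1 cKO. Adjacent steps of 1 pathway therefore lay on both sides of 0. Gpi1, Tpi1 and Pgk1 lay between −0.07 and 0.18, and neuronal enolase, Eno2, had 19 and 24 UMIs, under the minimum.

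At the branch point of pyruvate, the lactate dehydrogenase subunits differed little. Ldhb, the heart-type subunit, had 2185 in CT and 2424 CPM in Opa1 cKO. Ldha, the muscle-type subunit, had 293 and 299.7 CPM. Slc16a1, the lactate and pyruvate transporter MCT1, was at 44.7 and 38.1 CPM, a log2 ratio of −0.23 (−0.51 to 0.05). The subunits of the mitochondrial pyruvate carrier, which work as a pair, parted. Mpc1 was at 739.9 (712 to 769) in CT and 1129.6 CPM (1108 to 1152) in Opa1 cKO, which gave a log2 ratio of 0.61 (0.55 to 0.67), and Mpc2 at 361 and 362 CPM, a log2 ratio of 0.00 (−0.09 to 0.10).

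The subunits of the pyruvate dehydrogenase complex among the members were all above 0. Dld, the E3 subunit shared with the 2-oxoglutarate dehydrogenase complex, was past the fold with 83.7 in CT and 128.7 CPM in Opa1 cKO, which gave a log2 ratio of 0.62 (0.44 to 0.81). Pdha1, part of E1, lay just inside it at 0.498 (0.32 to 0.68), followed by Dlat, the E2 core, at 0.39 (0.18 to 0.62) and Pdhb at 0.10 (−0.05 to 0.26). The kinases among the members that inactivate the complex were all below 0, although the intervals of Pdk1 and Pdk2 included it. A further subunit, Pdhx, and a further kinase, Pdk3, belong to another list and their values are not given here. Pdk4, the isoform linked to fasting and fat use, was past the fold with 28.3 (23.0 to 34.4) in CT and 12.2 CPM (10.0 to 14.7) in Opa1 cKO, which gave a log2 ratio of −1.21 (−1.62 to −0.81). Pdk1 stood at −0.46 (−0.99 to 0.08) and Pdk2 at −0.15 (−0.32 to 0.02). Pcx, pyruvate carboxylase, which feeds oxaloacetate to the cycle, had 45.8 and 49.9 CPM.

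In the TCA cycle 2 of 12 members were past the fold, both higher, beside 15.1% of all genes. Idh3a, the catalytic subunit of the NAD-dependent isocitrate dehydrogenase, had the highest ratio of the 40 members, with 101 (91.0 to 112) in CT and 197 CPM (188 to 207) in Opa1 cKO, which gave a log2 ratio of 0.96 (0.80 to 1.13). The other subunits of the same enzyme, Idh3b and Idh3g, stood at 0.01 (−0.12 to 0.14) and 0.30 (0.16 to 0.44), and the NADP-dependent Idh2 at 0.11 (0.00 to 0.22). Fh1, fumarase, followed with 68.1 and 98.3 CPM, a log2 ratio of 0.53 (0.32 to 0.74). Mdh2, the mitochondrial malate dehydrogenase, stood at 0.41 (0.32 to 0.50) and the cytosolic Mdh1 at 0.18 (0.10 to 0.26). The entry enzyme of the cycle went the other way, with citrate synthase, Cs, at −0.23 (−0.35 to −0.10), and so did Ogdh, the E1 of 2-oxoglutarate dehydrogenase, at −0.40 (−0.69 to −0.11). The remaining 3, Dlst, Sucla2 and Suclg1, lay between −0.22 and 0.31.

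The NSC pool-like cells of the Opa1 cKO library differed widely in mitochondrially encoded mRNA, so the comparison was repeated by its share. The 13 mt- mRNAs made up a median of 5.23% of the UMIs of a CT cell and 0.73% of those of an Opa1 cKO cell. Of the latter, 1664 (58.4%) were mt-low (under 1%), 276 lay between 1% and 2%, and 907 were mt-normal (2% or more), while 1358 of the CT cells were mt-normal and 3 mt-low. Both further comparisons follow from this, mt-low with mt-normal cells within the Opa1 cKO library, and mt-normal cells between the libraries. They share the mt-normal Opa1 cKO cells. In those cells Opa1 was at 11.4 CPM (7.82 to 16.1), from 32 UMIs. It was at 6.36 CPM (4.43 to 8.85) in mt-low Opa1 cKO cells and 19.9 CPM (15.5 to 25.2) in mt-normal CT cells. How many mt-normal Opa1 cKO cells kept Opa1 was not tested.

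Within the Opa1 cKO library, few of these enzymes were past the fold between mt-low and mt-normal cells. The groups lay in different clusters, with 1500 of 1664 mt-low cells in the stress-led cluster 0, against 167 of 907 mt-normal cells, 605 of which were in cluster 1. Of 39 members with enough UMIs, 2 were past the fold on the higher and 1 on the lower side, against 17.8% and 5.86% of 7651 genes. The medians were 0.04 for glycolysis, 0.03 for pyruvate and lactate handling and −0.04 for the TCA cycle, where the median of all genes was 0.16, and the ISR list had a median of 1.68. Relative to all genes the branches thus lay at −0.12, −0.13 and −0.20. The further lists described below did not all lie under the median of all genes. In this comparison 17 other genes of the TCA cycle and its refilling had a median of 0.22. The median was 0.20 for other pyruvate and lactate genes, and 0.14 for both other glycolytic genes and the glycogen and pentose phosphate list. Pfkfb3 was at 21.1 CPM (16.1 to 27.2) in mt-normal and 48.5 CPM (42.9 to 54.7) in mt-low cells, a log2 ratio of 1.20 (0.79 to 1.64). The mt-normal level was close to the 22.2 CPM of mt-normal CT cells. Pcx was higher at 37.9 and 54.4 CPM, 0.52 (0.20 to 0.85), and Pfkl lower at 101.5 and 66.9 CPM, −0.60 (−0.83 to −0.37). Slc16a1, at 49.3 and 34.9 CPM, had a log2 ratio of −0.50 (−0.82 to −0.17), just inside the fold. Idh3a was at 164 and 217 CPM, 0.40 (0.24 to 0.56), Pdk4 at 15.4 and 11.3 CPM, −0.45 (−1.03 to 0.15), and Mpc1 at 1094 and 1159.6 CPM, 0.08 (0.02 to 0.15).

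Between the libraries, with mt- share held at 2% or more, 4 members were past the fold. Of 39 members 3 were higher and 1 lower, against 3.46% and 13.8% of 6968 genes. The groups were not alike in their clusters. In CT 36, 812 and 510 of the mt-normal cells lay in clusters 0, 1 and 2, and in Opa1 cKO 167, 605 and 135. The part of this in the ratios was not tested. Mpc1 was at 739 in CT and 1094 CPM in Opa1 cKO, 0.57 (0.49 to 0.64). Idh3a was at 101 and 164 CPM, 0.70 (0.50 to 0.90), and Dld at 84.0 and 119.0 CPM, 0.50 (0.27 to 0.73). Pdk4 was lower at 28.5 and 15.4 CPM, −0.89 (−1.44 to −0.36), with 43 UMIs in the Opa1 cKO cells. These are a carrier subunit, an E3 subunit, a TCA cycle subunit and a PDK kinase. Mpc2, the partner of Mpc1 in the carrier, lay inside the fold. It had 361 (341 to 381) in CT and 390 CPM (367 to 414) in Opa1 cKO. The medians were 0.07, 0.12 and 0.19 for the branches in the same order, with all genes at −0.06 and the ISR list at 0.19. Pfkfb3 stood at −0.08 (−0.59 to 0.43) here, and Pfkl at −0.10 (−0.32 to 0.13).

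**Figure D2:**
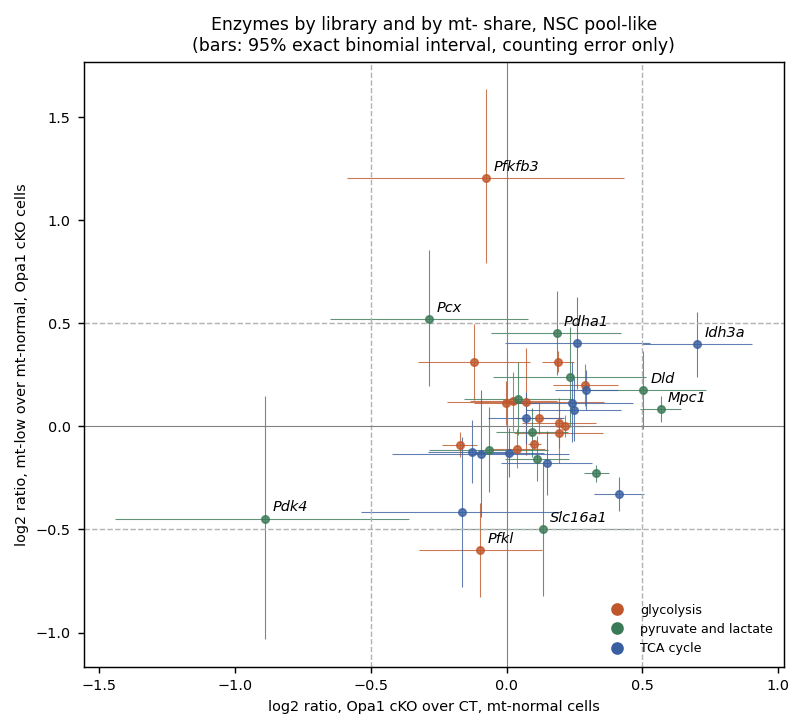
The log2 ratio of each member between the libraries in mt-normal cells (horizontal) and between mt-low and mt-normal cells of the Opa1 cKO library (vertical), coloured by branch, with 95% exact binomial intervals and dashed lines at 0.5 and −0.5. Mpc1, Dld, Idh3a and Pdk4 lie beyond the dashed lines of the horizontal axis, Idh3a and Pdk4 at 0.40 and −0.45 on the vertical, and Pfkfb3, Pcx and Pfkl lie beyond those of the vertical axis; both axes use the mt-normal Opa1 cKO cells.

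Finer bins of the mt- share gave the course of single members. Mpc1 lay between 1049 and 1187 CPM in all 6 Opa1 cKO bins, from under 0.5% to between 8% and 20%, and between 699.9 and 765 CPM in the 3 CT bins that could be read. The CT and Opa1 cKO bins did not overlap. Pfkfb3 was near 48 CPM in both Opa1 cKO bins under 1%, was highest at 67.4 CPM (50.8 to 87.7) between 1% and 2%, and then 28.5, 18.3 and 16.6 CPM in the bins above. Its 3 upper bins overlapped with the 19.4 to 28.1 CPM of CT. Slc16a1 had the opposite course, with its lowest level of 20.8 CPM (12.1 to 33.3) between 1% and 2% and 53.3 CPM above 8%. Pfkl was lowest in the same bin, at 53.9 CPM (39.2 to 72.4). By counting error these extreme values overlapped those of the bin from 0.5% to 1%. The intervals there were 39.5 to 58.9 CPM for Pfkfb3, 23.2 to 38.7 CPM for Slc16a1 and 54.3 to 76.7 CPM for Pfkl. Idh3a was at 224 CPM (209 to 241) under 0.5%, 173 CPM between 2% and 4%, and 103 CPM (70.1 to 146) above 8%, where it overlapped with CT at 84.2 CPM (61.4 to 113).

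The branch sums had their low point in the same bin. In Opa1 cKO the glycolytic sum was 18292 CPM under 0.5%, 14172 CPM between 1% and 2%, and 18389 CPM between 4% and 8%. The pyruvate and lactate sum was 5019, 4176 and 5389 CPM in these bins, and the TCA cycle sum 2736, 2465 and 2841 CPM. All 3 branches thus had their lowest value where Pfkfb3 had its highest, although Pfkfb3 overlapped with the bins under 1% by counting error. The low TCA cycle sum (2358 to 2575 CPM) overlapped with both neighbouring bins and with the bin above 8% (2417 to 2785 CPM). The neighbours had 2553 to 2693 CPM between 0.5% and 1%, and 2508 to 2733 CPM between 2% and 4%. The low glycolytic sum (13914 to 14432 CPM) and pyruvate and lactate sum (4037 to 4319 CPM) overlapped with no other Opa1 cKO bin. Markers of cell state also differed in this bin. Activated NSC markers summed to 341 CPM there, against 116 in mt-low and 149 CPM in mt-normal Opa1 cKO cells. In the same order microglia markers summed to 238, 132 and 127 CPM, and a list of radial glia-like NSC genes to 1610, 1282 and 1485 CPM. Astrocyte genes summed to 3599, 4409 and 5662 CPM. The part of these states in the values of this bin was not tested. Between 4% and 8%, CT had 16695, 4248 and 2403 CPM, below Opa1 cKO in each branch, while between 2% and 4% its glycolytic sum of 17543 CPM was above the 16773 CPM of Opa1 cKO.

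**Figure D3:**
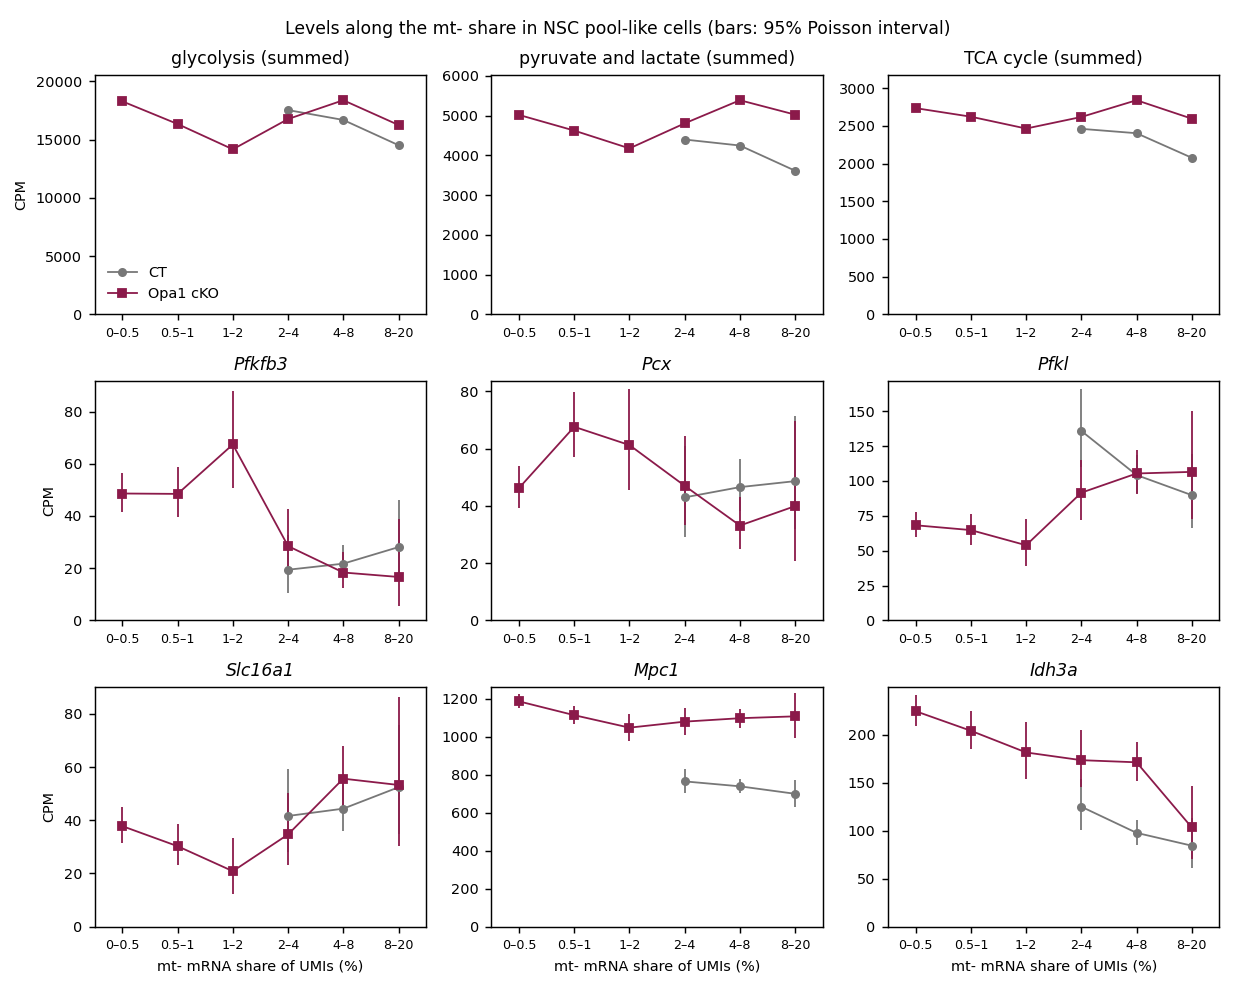
Summed CPM of each branch and CPM of 6 members in NSC pool-like cells, by the share of UMIs from mitochondrially encoded mRNAs, for CT (grey) and Opa1 cKO (dark red). Bars on single genes are 95% Poisson intervals, and CT bins under 2% held too few cells. Mpc1 is separated by library in each bin where both could be read. Pfkfb3 has its highest value in the bin from 1% to 2%, which overlaps with the bins under 1% by counting error.

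Markers of cell state differed along with these groups. Of 9 astrocyte genes 5 were past the fold on the lower side in Opa1 cKO, with a median of −0.61, beside 16.4% of all genes. In mt-low against mt-normal cells 4 of 9 were lower, with a median of −0.40, beside 5.86% of all genes. Markers of oligodendrocyte precursors summed to 115 in CT and 309 CPM in all Opa1 cKO cells of the pool, and to 151 CPM in mt-normal and 391 CPM in mt-low cells. Microglia markers summed to 71.8 and 139.7 CPM in the libraries and to 127 and 132 CPM in mt-normal and mt-low cells, and ependymal markers to 146 and 111 CPM and to 183 and 75.1 CPM. Few of these markers had enough UMIs in both comparisons, 2 of 4 for oligodendrocyte precursors, 2 of 7 for microglia and 1 of 6 for ependymal cells. In mt-low over mt-normal cells the 2 microglia markers lay on both sides of 0, at −0.48 and 0.54. Of the 11 NSC pool markers, 6 were lower and 1 higher in mt-low cells, beside 5.86% and 17.8% of all genes. The sum of the 11 was 43451 CPM in mt-low and 63215 CPM in mt-normal cells. The part of these cell types and states in the members' values was not tested. Aldoc, which was not used as a marker, had 9694 CPM in mt-low and 10296 CPM in mt-normal cells, −0.09 (−0.11 to −0.07).

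Other genes of the same pathways were read from further lists. Among 19 other genes of the TCA cycle and its refilling, 18 had enough UMIs in NSC pool-like cells and 3 were higher and 3 lower in Opa1 cKO, beside 15.1% and 16.4% of all genes. All 4 subunits of succinate dehydrogenase, which is both a TCA cycle enzyme and a respiratory complex, were above 0, with Sdha at 0.55, Sdhd at 0.64, Sdhb at 0.47 and Sdhc at 0.44. Sdhb and Sdhc lay inside the fold and were chosen for naming after their values were seen. Gpd1, a glycerol 3-phosphate dehydrogenase, stood at 0.93. Among the lower genes were Acly and Slc25a1, which make cytosolic acetyl-CoA from exported citrate, at −0.99 and −0.53.

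Of 17 other genes of pyruvate and lactate, 11 were measured, with 1 higher and 2 lower, beside 15.1% and 16.4% of all genes. Pck2, the mitochondrial PEP carboxykinase and a known ATF4 target, had 9.89 in CT and 75.4 CPM in Opa1 cKO, which gave a log2 ratio of 2.93 (2.44 to 3.46), and 20.4 and 101.5 CPM in mt-normal and mt-low cells of Opa1 cKO. It differed more than any of the 42. Pdp2, a phosphatase that activates pyruvate dehydrogenase, stood at −0.76, and Gpt, an alanine aminotransferase, at −0.65. Gpt2, its mitochondrial counterpart, was higher in mt-low cells at 0.70 (0.37 to 1.04). Bsg, the chaperone of MCT1, was at 1248 CPM in mt-normal and 717 CPM in mt-low cells, −0.80 (−0.87 to −0.73), and Slc16a1 lay on the same side.

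Of 18 other glycolytic genes 6 were measured, with Pgm2 higher at 0.73 and Pfkfb2, a further fructose 2,6-bisphosphate enzyme, lower at −1.45 (−2.02 to −0.87), opposite to Pfkfb3. The glycogen and pentose phosphate list had 2 of 12 lower, Pygm at −0.77 and Rpia at −0.64, and 0 higher. The lists of this paragraph stand beside 15.1% of all genes higher and 16.4% lower. Of 12 other HIF targets 7 were measured, with a median of −0.07, and Vegfa and Kdm3a were lower at −1.21 and −0.78. Vegfa was lower by as much between mt-normal cells of the libraries, at −1.27 (−1.51 to −1.03).

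Each branch had its highest CT sum in the NSC pool-like class. In these CT cells astrocyte genes summed to 6853 CPM and radial glia-like NSC genes to 1416 CPM. How much of each branch sum belongs to astrocytes rather than NSCs was not tested. In CT, glycolysis summed to 16566 CPM in NSC pool-like cells, to 6442 CPM in mural-like, 5561 CPM in endothelial-like, 4747 CPM in ependymal-like and 3698 CPM in oligodendrocyte-like cells, and to 2949 CPM in the progenitor and neuron-like class. The neighbours in this order, mural-like, endothelial-like and ependymal-like, did not overlap by counting error, with intervals of 6055 to 6848, 5256 to 5879 and 4335 to 5188 CPM. Without Aldoc the sums kept this order, with 6959 CPM in NSC pool-like, 5018 CPM in mural-like and 4698 CPM in endothelial-like cells. They were 4016 CPM in ependymal-like and 2967 CPM in oligodendrocyte-like cells, and 2326 CPM in the progenitor and neuron-like class. Intervals are not given for the sums without Aldoc, so the order of these neighbours is not shown to exceed counting error. The TCA cycle spanned less, from 2366 CPM in NSC pool-like to 1089 CPM in oligodendrocyte-like cells, with ependymal-like cells at 1949.7 CPM and mural-like cells at 1906 CPM not separable by counting error. Progenitor and neuron-like cells had the lowest glycolytic sum but a TCA cycle sum of 1585 CPM, above endothelial-like cells at 1306 CPM.

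Isozymes and transporters marked single classes. Aldoc outnumbered Aldoa in CT NSC pool-like cells, while in mural-like cells Aldoc had 1425 CPM (1246 to 1622) and Aldoa 1612 CPM (1421 to 1821), which overlap. The NSC pool markers summed to 12460 CPM in CT mural-like and 59246 CPM in CT NSC pool-like cells, and how much of the Aldoc count of this and the other classes is NSC mRNA was not tested. Ldhb outnumbered Ldha in NSC pool-like cells, and the order turned in endothelial-like cells, with Ldha at 546 CPM (453 to 652) and Ldhb at 318 CPM (248 to 401). Slc2a1 was highest in endothelial-like cells at 1154 CPM (1018 to 1304), where GLUT1 carries glucose over the blood-brain barrier, and then in ependymal-like cells at 497 CPM (370.2 to 654). Mural markers summed to more than endothelial markers in the endothelial-like class, at 19936 against 15198 CPM in CT and 17004 against 14348 CPM in Opa1 cKO, and no doublets were removed. Slc16a1 had the same order, with 394 CPM (316 to 485) and 136 CPM (74.6 to 229.0). Pdk1 was at 87.7 CPM (40.1 to 167) in ependymal-like cells, from 9 UMIs, and at 13.3 CPM in NSC pool-like cells, from 47 UMIs. Mpc1 was as high in oligodendrocyte-like cells, 756 CPM (657 to 867), as in NSC pool-like cells.

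**Figure D4:**
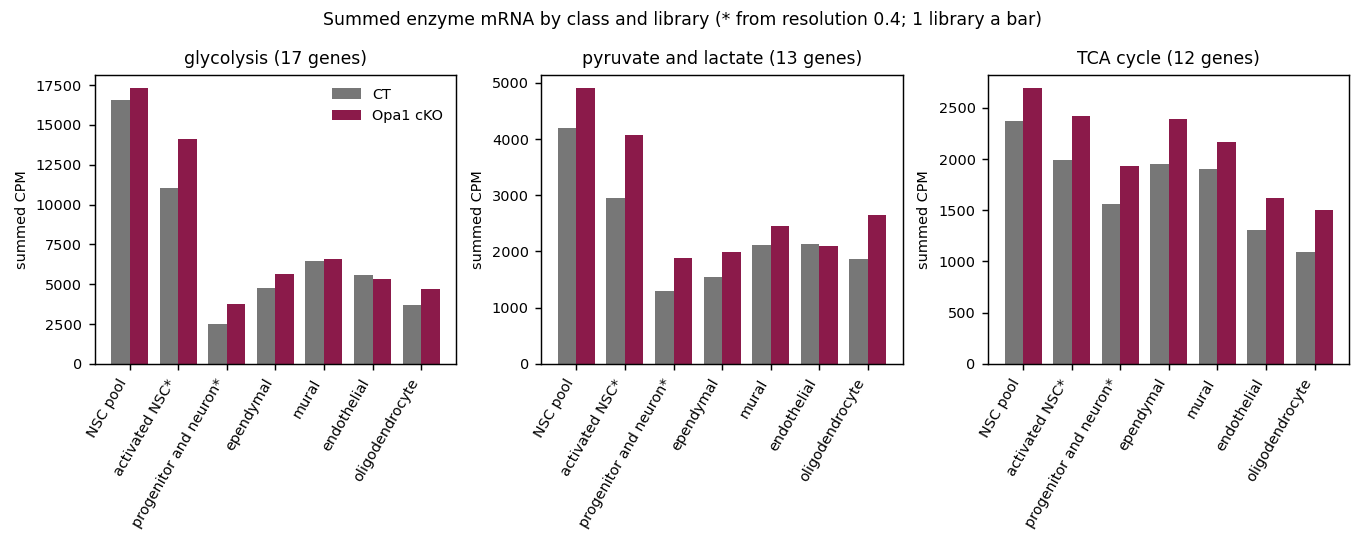
Summed CPM of the 3 branches by class in CT (grey) and Opa1 cKO (dark red), 1 library per bar, so bars carry no replicate error. Glycolysis stands highest in NSC pool-like cells. Classes marked with an asterisk come from the clustering at resolution 0.4, in which activated NSC-like cells formed a class of their own.

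Progenitor and neuron-like cells were compared next. In 154 CT and 313 Opa1 cKO cells, 14 of 26 members were past the fold, all higher, against 20.9% higher and 20.8% lower of 2948 genes. The class was not alike in the libraries. Of its 12 own markers, 11 were measured and all 11 were lower in Opa1 cKO, with sums of 19357 in CT and 9342 CPM in Opa1 cKO. The NSC pool markers summed to 7280 in CT and 16529 CPM in Opa1 cKO. At resolution 0.4 the class held 140 CT and 173 Opa1 cKO cells, and these sums were 20876 and 15207 CPM for its own markers and 4781 and 7188 CPM for the NSC pool markers. In this narrower class 10 of 22 members were higher and 0 lower, against 13.9% and 15.3% of 2027 genes, with medians of 0.79 for 9 glycolytic members, 0.50 for 5 of pyruvate and lactate and 0.34 for 8 of the TCA cycle, beside 0.04 for all genes.

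The members differed unequally in this narrower class. Aldoa had 207 in CT and 475 CPM in Opa1 cKO, which gave a log2 ratio of 1.19 (0.85 to 1.55), and Pgk1, phosphoglycerate kinase, 122 and 258 CPM, 1.08 (0.62 to 1.56). Eno1 stood at 1.01 (0.61 to 1.44), Tpi1 at 0.83 (0.37 to 1.32), Aldoc at 0.79 (0.54 to 1.05) and Gpi1 at 0.78 (0.21 to 1.38). Gapdh, in the middle of the same pathway, stood at 0.06 (−0.19 to 0.31) with 530.0 and 551 CPM. Mpc1, Pdhb, Idh3a and Ldhb were also past the fold, at 0.69, 0.75, 0.75 and 0.50. NSC markers were higher beside them, with Apoe at 0.60 (0.50 to 0.70), Slc1a3 at 0.70 (0.51 to 0.89) and Gfap at 1.47 (0.79 to 2.20). Whether NSC mRNA or NSCs in this class contribute to the glycolytic values was not tested.

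Activated NSC-like cells separated at resolution 0.4, as 51 CT and 779 Opa1 cKO cells that overlap with the NSC pool-like class. The cluster took its name from 3 of 9 activated NSC markers. The progenitor and neuron-like class shrank at this resolution, from 313 to 173 cells in Opa1 cKO and from 154 to 140 in CT. How many of its cells joined the activated NSC-like class was not counted. In them 10 of 36 members were higher and 3 lower in Opa1 cKO, against 27.4% and 17.6% of 4424 genes. With 51 CT cells the intervals were wide, as for Idh3a with 8 CT UMIs at 1.42 (0.43 to 2.64). Eno1 stood at 0.85 (0.52 to 1.21) and Mpc1 at 0.78 (0.43 to 1.14). The 3 lower members, Hk1, Pcx and Dlst, had 10 to 12 UMIs in CT and intervals that included 0.

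In the classes outside the lineage, few members had enough UMIs. In ependymal-like cells, with 39 CT and 245 Opa1 cKO cells, 7 of 24 members were higher and 0 lower, against 18.4% and 10.6% of 1945 genes. The mt- share differed in this class as it did in NSC pool-like cells, with a median of 6.41% in CT and 0.69% in Opa1 cKO. In mural-like cells 3 of 14 were higher, Gpi1, Ldhb and Mpc1, and Ldha was lower at −0.53 (−0.91 to −0.14), against 20.3% and 11% of 945 genes. In endothelial-like cells 2 of 16 were higher, against 10.8%, and 2 lower, against 10.6% of 1127 genes. The lower members were both transporters, Slc2a1 with 1154 and 808 CPM, −0.51 (−0.76 to −0.27), and Slc16a1 with 394 and 235 CPM, −0.75 (−1.19 to −0.30). In this class globin mRNA summed to 44.7 in CT and 31504 CPM in Opa1 cKO cells. Its part in the ratios was not tested. In oligodendrocyte-like cells 5 of 13 were higher and 1 lower, against 13.1% and 9.63% of 1256 genes. Among the higher were Eno1 at 1.27 (0.76 to 1.81) and Aldoc at 0.96 (0.72 to 1.20), while the NSC pool markers summed to 9332 and 11928 CPM. The lower member was Pgk1, at −0.56.

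Mpc1 was the 1 member past the fold in all 6 of these classes, taking progenitor and neuron-like cells at resolution 0.4. Of 594 genes with enough UMIs in every class, 2 (0.337%) were past the fold on the higher side throughout, and 12 members were among the 594. The other gene was Cpe, and 1 gene, Dpysl2, was past the fold on the lower side throughout, both named here after their values were seen. The log2 ratios of Mpc1 ran from 0.61 in NSC pool-like to 0.95 (0.42 to 1.52) in ependymal-like cells. In oligodendrocyte-like cells it was at 756 in CT and 1162 CPM in Opa1 cKO, 0.62 (0.38 to 0.86), and there the median mt- share was alike, at 4.85% and 4.77%. Its partner Mpc2 ranged from −0.34 to 0.46 and was past the fold in 0 of 6 classes. Eno1, Aldoc, Ldhb, Mdh1 and Mdh2 were above 0 in 6 of 6 classes, and Gapdh in 1 of 6, with a range from −0.48 to 0.06. The median of all genes was also above 0 in each class, from 0.02 to 0.14. How many of all genes were above 0 in 6 of 6 was not counted. Aldoc, at 0.0145 in NSC pool-like cells, lay under their all-gene median of 0.0162.

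**Figure D5:**
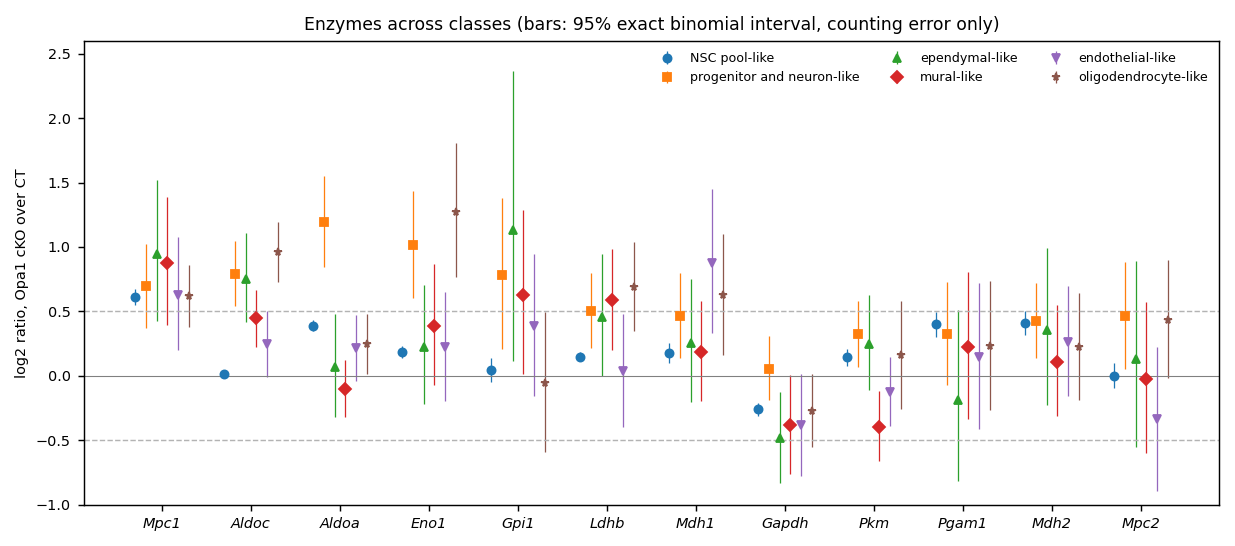
The log2 ratio of Opa1 cKO over CT in 6 classes for the 12 members with at least 100 UMIs in each, with 95% exact binomial intervals of counting error and dashed lines at 0.5 and −0.5. Mpc1 lies above 0.5 in all 6 classes, and Gapdh at or below 0.06.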

How the data were processed

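Cell Ranger (2.1.1 in the submitters' processing notes, while the file headers name a later version, which was not settled) was run by the authors on mm10, and its UMI counts were deposited raw. The annotation used is not given in the sources used here. Identifiers sharing a symbol were summed, as for Aldoa. Cells with over 600 and under 7500 genes, under 20% mitochondrial UMIs and at least 1 YFP UMI were kept. Counts were clustered with Seurat 5.3.0 and sctransform 0.4.2 in R 4.3.3 (8 dimensions, resolution 0.2) without the members. Clusters were named for the type that had the most markers, and at least 3, in their top 50 genes by fold (10 CPM added). Clusters left over were compared with those named first, and took the type with at least 50% of markers over a log2 fold of 1. The form of this rule was set after the clusters were seen. No doublet caller was run. UMIs were summed per library and class in python 3.11.15 with scipy 1.17.1. CPM have exact Poisson and ratios exact binomial (Clopper-Pearson) intervals at 95%, which cover counting error only. The ratio intervals were run on simulated Poisson counts, which hold no spread between cells and so cannot show coverage for these data. A count of 0 was set at 3. With 1 library per genotype no test was made, and a log2 ratio of 0.5 with at least 100 UMIs marks size. All 42 members are accounted for in NSC pool-like cells of Opa1 cKO and CT, with those past the fold and the isozymes in full. In other classes only some of the members past the fold are named. Other genes of the pathways are given by list. The members, lists and markers were chosen with earlier results of these data known. The 14 alternatives are described at the end. Some genes of the further lists are not reported here.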

Additional observations from a re-analysis of the deposited data

How the results depend on the processing

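With 1 library per genotype there is no replicate error, and intervals cover counting error only. No paired analysis was possible because each genotype has 1 library, and for the same reason no replicate could be left out. Under 14 alternatives no ratio changed sign past the fold, and 82 recomputed counts of members stayed within 1.5 times while 44 did not. Those 44 follow, higher and lower meaning past the fold, and where no cause is named the cause was not tested. In NSC pool-like cells, Opa1 cKO over CT, 5 were higher and 1 lower. The lower count was 2 without the YFP filter, with the mean of the CPM of each cell, without the 5% of cells with most UMIs, relative to the median of all genes and with no UMI minimum, and 0 at a minimum of 300 UMIs. The higher count was 0 with a log2 ratio of 1 as the fold. For mt-low over mt-normal cells, with 2 higher and 1 lower, the lower count was 2 with all genes used for clustering, with the mean of the CPM of each cell, at 1500 UMIs a cell, with mt-low set under 0.5% and with mt-normal from 4%, was 4 relative to the median of all genes, and was 0 with a log2 ratio of 1. The higher count was 1 with the ISR list left out of clustering, relative to the median of all genes, with a log2 ratio of 1 and with mt-low under 0.5%, and 4 with no minimum. Between mt-normal cells, with 3 higher and 1 lower, the lower count was 2 without the YFP filter, 0 at 1500 UMIs a cell and at a minimum of 300, and 4 with no minimum, and with a log2 ratio of 1 both counts were 0. In progenitor and neuron-like cells, with 14 higher, the count was 9 without the YFP filter and with all genes used for clustering, 8 at 1500 UMIs a cell and at a minimum of 300, and 4 with a log2 ratio of 1, and 1 was lower with no minimum. In the 4 classes outside the lineage, with 17 higher and 4 lower in all, the counts were 27 and 2 without the YFP filter, 10 and 0 at 1500 UMIs a cell, 7 and 1 at a minimum of 300, 49 and 19 with no minimum, and 2 and 0 with a log2 ratio of 1. The lower count there was 2 with CPM over all UMIs and without the 5% of cells with most UMIs, and 8 relative to the median of all genes. Of the values of single members 290 stayed within their intervals and 17 moved, all in progenitor and neuron-like cells, among them Aldoa, at 1.53, which ranged from 0.91 to 1.19, and Aldoc, at 1.38, from 0.70 to 1.20, and without the YFP filter Mpc2 was 0.17 and Idh2 0.08. Of the medians 130 stayed and 11 moved, the 3 of mt-low cells relative to all genes and 8 in progenitor and neuron-like cells, where that of glycolysis, at 0.88, ranged from 0.58 to 0.75.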
